A study of Mus musculus with 24 samples.

Results

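The genes described here are 37 genes of the cell cycle and DNA replication, chosen by name out of the 27962 gene names on the array. They cover the loading and opening of replication origins, the replication fork, the supply of deoxynucleotides, the transcription factors and cyclins of the G1 to S transition, the cyclins and kinase of S phase to mitosis, and the kinases, checkpoint proteins and motors of mitosis itself. Each gene was represented by 1 probe, the one with the highest mean intensity, and 21 of the 37 genes had only 1 probe.

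A cell that divides first loads the ring-shaped MCM helicase onto its replication origins, then copies its DNA in S phase and separates the copies in mitosis. Most genes of this programme are transcribed in waves, so that a tissue in which many cells divide holds much of their mRNA and a resting tissue holds little. The epithelium of the colon is renewed throughout life by cells that divide in the lower part of the crypts, whereas hepatocytes of the adult liver rarely divide unless the liver is injured.

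Colon and liver were taken from the same 12 female C57BL/6 mice at 12 weeks of age. The mothers of every mouse ate a diet rich in fat and low in both selenium and folate (HF-low) from 7 days before mating until weaning at about 28 days. After weaning 6 mice stayed on this diet (HF-low-low) and 6 were moved to a high-fat diet in which both nutrients were sufficient (HF-low-suf), so that all groups share the high-fat diet and the maternal low diet, and none was fed a diet with normal fat. Whole tissue was extracted, in which fewer cells of a type and less RNA per cell cannot be told apart. Each of the 24 arrays carried 1 tissue sample in Cy3 and a pooled reference in Cy5, always in this orientation. Values below are log2 ratios of Cy3 to Cy5, so that 0 means as much signal as in the reference and a difference of 1 is 2-fold.

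The arrays differed in quality. The median Cy3 signal was 3.77 to 7.22 times background, and 26.1% to 71.9% of spots were well above background in Cy3, the measure of detection used here. The reference channel was brighter on 2 arrays, colon HF-low-suf replicate 5 and liver HF-low-suf replicate 4, and on the second of these 8.75% of spots were flagged as outliers. The tissues carried their defining markers: 9 of 10 genes of differentiated colon epithelium were higher in the colon (Aqp8 was higher in the liver) and 11 of 11 hepatocyte genes were higher in the liver.

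The reference promoters of these genes were searched for letters known from cell cycle genes, and stretches of 7 of them are shown because the loading genes and the mitotic genes are also described separately below. E2F proteins are known for binding promoters of genes of the G1 to S transition, whereas the CHR element (TTTGAA or TTTAAA), often together with CCAAT boxes, is known for genes of G2 and mitosis. RefSeq promoter windows (build GRCm38.p6, 250 bases before to 50 after the start) were found for 31 of the 37 genes, with Cdc2a under its current name Cdk1. No entry was found for Mcm4, Foxm1, Ccne2, Ccna2, Aurkb and Kif20a. The E2F letters searched were TTTGGCGC, TTTCCCGC, TTTCGCGC and TTTGCCGC, and all motifs were searched on both strands.

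For the helicase and loading genes, capitals mark only the E2F letters, which overlap on opposite strands in Mcm6 and Mcm5, and a CCAAT match in the Mcm6 stretch is in lower case. The stretches lie at chr1:128359730-128359830 (minus strand) for Mcm6, chr8:75109341-75109382 (plus strand) for Mcm5 and chr11:98907998-98908035 (plus strand) for Cdc6:
Mcm6: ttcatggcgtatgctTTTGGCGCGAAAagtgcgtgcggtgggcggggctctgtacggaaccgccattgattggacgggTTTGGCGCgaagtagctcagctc
Mcm5: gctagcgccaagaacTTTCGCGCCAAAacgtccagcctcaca
Cdc6: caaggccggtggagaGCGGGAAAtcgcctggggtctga

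For the mitotic genes, capitals mark CHR and CCAAT letters on either strand. The stretches lie at chr9:70421556-70421736 (minus strand) for Ccnb2, chr4:118437344-118437411 (minus strand) for Cdc20 and chr7:122159331-122159434 (plus strand) for Plk1:
Ccnb2: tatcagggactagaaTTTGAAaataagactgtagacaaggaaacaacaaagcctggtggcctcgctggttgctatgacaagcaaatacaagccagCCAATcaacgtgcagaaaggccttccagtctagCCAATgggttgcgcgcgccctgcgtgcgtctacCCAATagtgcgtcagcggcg
Cdc20: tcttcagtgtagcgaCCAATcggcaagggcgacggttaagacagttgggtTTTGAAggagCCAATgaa
Plk1: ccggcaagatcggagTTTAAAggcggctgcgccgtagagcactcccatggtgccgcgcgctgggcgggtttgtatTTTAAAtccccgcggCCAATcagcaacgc

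Cdc2a, whose product drives entry into mitosis, held E2F letters together with CHR and CCAAT letters, all of them in capitals here (chr10:69352913-69353135, minus strand):
Cdc2a: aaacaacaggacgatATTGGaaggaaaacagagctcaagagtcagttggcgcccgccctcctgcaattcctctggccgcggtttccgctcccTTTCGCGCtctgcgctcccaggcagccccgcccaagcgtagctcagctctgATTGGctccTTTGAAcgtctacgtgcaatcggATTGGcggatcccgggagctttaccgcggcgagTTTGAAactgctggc

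The counts below cover the genes of each role with a window, whether or not the array detected them, and so include Cdc6 and lack Mcm4. E2F letters were present in 6 of these 7 loading and helicase genes (85.7%), in 1 of 15 genes of the S to M cyclins and mitosis (6.67%), and in 2.26% of all 32851 windows. CHR and CCAAT letters together were present in 11 of these 15 genes (73.3%), in 2 of 7 loading and helicase genes, Mcm2 and Mcm5, and in 10.7% of all windows. CCAAT letters alone separated these roles less, with 5 of 7 loading and helicase genes (71.4%), 13 of 15 mitotic genes (86.7%) and 37.4% of all windows. Of the other 9 genes with a window, E2F letters were present in Hells alone (11.1%) and CHR with CCAAT letters in Top2a, Mki67 and Rrm2 (33.3%), and Pcna, Rrm1, Rrm2, Tk1, E2f1 and Ccne1 held none of the E2F letters searched. A match is a description of the letters and not a site that was measured.

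The first comparison set the colon, as a renewing tissue, against the liver of the same mice. Of the 37 genes, 24 were higher in the colon by more than 1.5-fold at an adjusted P below 0.05 (limma, mouse as a random block) and 0 were higher in the liver. Of all 41174 probes on the array, 12.2% were higher in the colon and 11.4% higher in the liver by the same rule. The median difference of the 37 genes was 1.0 on the log2 scale, against -0.02 over all probes, and 34 of the 37 differences were positive. In the colon 25 of the genes were well above background on all 12 arrays, and in the liver 9 were. Of all 41174 probes, 13795 were so in the colon and 9665 in the liver. On 0 liver arrays did 12 of the genes reach that level, among them Hells, Top2a, Aurkb, Nek2 and Bub1b of the 24. The share of all probes that reached it on 0 liver arrays is not given. On 9 genes every colon array lay above every liver array, which held for 7.11% of the probes measured on all arrays. The split of calls over the whole array depended on the normalization: 51.7% of the called probes were higher in the colon, and 70.8% when arrays were centred on their medians and loess was left out, where 27 of the 37 genes were called higher in the colon.

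**Figure D1:**
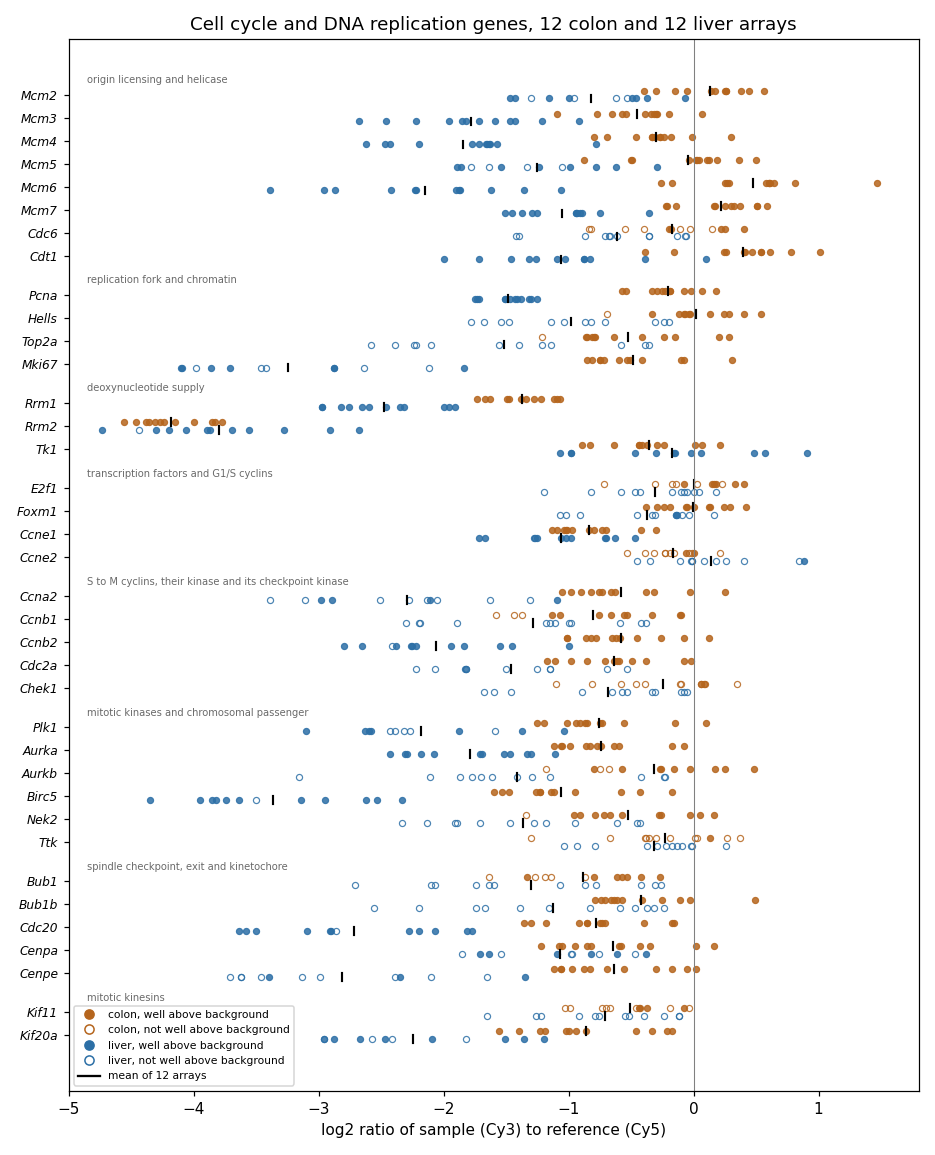
Log2 ratio of sample (Cy3) to reference (Cy5) for each of the 37 genes, with 1 point per array (12 colon, 12 liver), filled where the probe was well above background and open where it was not, and a black line at the mean. The colon points lie to the right of the liver points for 9 genes without overlap, such as Mcm6 and Mki67, while those of Rrm2, Tk1 and Ccne1 overlap.

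The genes that load and form the helicase were higher in the colon in 7 of 8 cases, with a median difference of 1.30. Mcm6, a subunit of the MCM2-7 helicase ring (probe at chr1:128211735-128211794, mm7, minus strand), had the largest difference among them. In the colon its log2 ratio was 1.47, 0.60, -0.17, 0.81, 0.25 and 0.58 in HF-low-low replicates 1 to 6 and 0.64, 0.27, 0.60, 0.61, 0.28 and -0.26 in HF-low-suf replicates 1 to 6. In the liver it was -1.88, -1.36, -2.23, -1.87, -3.39 and -2.22 in HF-low-low and -1.90, -2.87, -2.42, -1.62, -1.06 and -2.96 in HF-low-suf. Every colon array lay above every liver array, and the diets overlapped in both tissues. The difference of 2.62 ± 0.20 (SE), or 6.16-fold, was seen in 12 of 12 mice (adjusted P = 2.21e-11, and P = 0.000488 by an exact sign-flip test, the smallest that 12 mice allow).

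The other subunits of the ring differed less. The difference was 1.55 ± 0.15 for Mcm4, 1.33 ± 0.15 for Mcm3, 1.27 ± 0.12 for Mcm7, 1.20 ± 0.16 for Mcm5 and 0.95 ± 0.14 for Mcm2 (log2, SE). All of them were higher in the colon of 12 of 12 mice, and of these only Mcm7 had tissues that did not overlap. Mcm2 and Mcm5 were well above background on 8 of 12 liver arrays and the remaining 4 subunits on all 12. Cdt1, which brings the ring to the origin, differed by 1.45 ± 0.17, and its liver values reached from -2.00 to 0.10, into the range of the colon (-0.39 to 1.01). Cdc6, its partner in loading, was well above background on 5 colon arrays and on 0 liver arrays, and its difference of 0.44 ± 0.15 did not reach 1.5-fold (adjusted P = 0.0259). For genes that were dim on every liver array a lower bound of the fold was taken, which sets the mean Cy3 level in the colon against the mean, over liver arrays, of the gene's own signal or the lowest signal well above background on that array, whichever was higher. It is given for genes that passed the test.

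All 4 genes of the replication fork and chromatin were higher in the colon. Mki67, the antigen used to stain dividing cells (chr7:132094802-132094861, mm7, minus strand), had the largest difference of all 37 genes. Its log2 ratio in the colon was -0.10, -0.85, -0.72, -0.41, -0.53 and -0.75 in HF-low-low replicates 1 to 6 and 0.31, -0.75, -0.60, -0.51, -0.08 and -0.81 in HF-low-suf. In the liver it was -3.98, -2.88, -3.42, -4.10, -3.86 and -2.12 in HF-low-low and -2.88, -3.46, -3.71, -1.84, -2.64 and -4.09 in HF-low-suf, and the probe was well above background on 7 of the 12. The lowest colon array was thus above the highest liver array. The difference was 2.77 ± 0.21, or 6.80-fold, in 12 of 12 mice (adjusted P = 2.24e-11), and a second, dimmer probe of Mki67, well above background on 1 of 12 liver arrays, gave 1.61.

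Pcna, the sliding clamp of the DNA polymerases, differed by 1.28 ± 0.09 with no overlap between the tissues (adjusted P = 1.32e-12). Its liver values stayed within -1.75 to -1.25, a narrower range than that of the MCM genes. The Pcna value is a mean over 10 spots per array, where nearly all other genes had 1 spot, and the part of this averaging in the narrow range was not tested. Hells, a chromatin remodelling helicase, and Top2a, the topoisomerase that untangles replicated DNA, were well above background on 0 liver arrays. They were at least 1.77-fold and at least 1.68-fold higher in the colon, with measured differences of 1.0 ± 0.17 and 0.99 ± 0.22.

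The enzymes that supply deoxynucleotides differed among themselves, with 1 of 3 higher in the colon. Rrm1, the large subunit of ribonucleotide reductase, was higher in the colon by 1.11 ± 0.12 (12 of 12 mice, no overlap). Rrm2, its small subunit (chr12:22550253-22550307, mm7, plus strand), differed by -0.38 ± 0.17 (adjusted P = 0.0897), with a higher value in the colon of 3 of 12 mice. In the colon Rrm2 read -3.77, -4.56, -3.83, -3.85, -4.38 and -4.24 in HF-low-low replicates 1 to 6 and -4.36, -4.15, -4.31, -4.46, -4.00 and -4.27 in HF-low-suf. In the liver it read -3.69, -4.20, -3.56, -4.73, -4.06 and -2.91 in HF-low-low and -4.44, -3.87, -3.89, -2.68, -3.28 and -4.30 in HF-low-suf. The ranges of the tissues overlapped, and the liver values spread more widely.

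Tk1, the thymidine kinase of the salvage pathway, differed by -0.18 ± 0.18 (adjusted P = 0.516). In the colon its log2 ratio ran from -0.89 to 0.21 with a median of -0.39, and in the liver from -1.07 to 0.91 with a median of -0.15. The liver range enclosed the colon range. The sign of both the Rrm2 and the Tk1 difference depended on the normalization: with median centring they were 0.04 and 0.26, and Rrm2 was 0.15 with the signals processed by the scanner software, all short of the threshold.

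None of the 4 genes among the transcription factors and G1/S cyclins passed the test. E2f1, a transcription factor that activates S phase genes, was well above background on 6 colon arrays and no liver array. It was higher in the colon of 12 of 12 mice (P = 0.000488, exact sign-flip test), but its difference of 0.31 ± 0.13 had an adjusted P of 0.0577. Foxm1, a transcription factor of mitotic genes, differed by 0.37 ± 0.13 (adjusted P = 0.0201), under 1.5-fold. Ccne1 and Ccne2 encode the E cyclins that start S phase. Ccne1 was above background on 12 colon and 11 liver arrays and differed by 0.23 ± 0.13 (adjusted P = 0.184), and by 0.61 (adjusted P = 0.00222) with median centring. Ccne2 differed by -0.30 ± 0.12 (adjusted P = 0.0497), under 1.5-fold, and was above background on 2 colon arrays and 1 liver array.

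Of the S to M cyclins and their kinases, 3 of 5 were higher in the colon. The difference was 1.70 ± 0.21 for Ccna2, the cyclin of S phase and G2, with no overlap between the tissues, and 1.48 ± 0.17 for Ccnb2, a cyclin of mitosis, each in 12 of 12 mice. Cdc2a differed by 0.83 ± 0.17 in 10 of 11 mice, since its spot was marked as an outlier and left out on liver HF-low-suf replicate 4. In the liver Ccna2 was well above background on 4 of 12 arrays, Ccnb2 on 11 and Cdc2a on 2, so that the liver values of Ccna2 and Cdc2a, and the gap between tissues for Ccna2, rest mostly on dim spots. Ccnb1, the other mitotic cyclin, had a difference of 0.48 ± 0.22 (adjusted P = 0.0961), with a higher value in the colon of 8 of 12 mice. It was above background on 9 colon arrays and 0 liver arrays. Chek1, a checkpoint kinase that restrains the cycle when DNA is damaged, was above background on 2 colon arrays and gave 0.45 ± 0.19 (adjusted P = 0.0621).

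Among the mitotic kinases and the chromosomal passenger complex, 5 of 6 genes were higher in the colon. Birc5, the survivin subunit of that complex (chr11:117964690-117964749, mm7, plus strand), followed Mki67 and Mcm6 in the size of its difference. In the colon it read -1.23, -1.26, -1.14, -0.17, -1.23 and -1.60 in HF-low-low replicates 1 to 6 and -0.43, -0.58, -1.12, -1.53, -0.95 and -1.48 in HF-low-suf. In the liver it read -3.50, -2.53, -3.64, -3.82, -3.95 and -2.62 in HF-low-low and -3.14, -3.85, -3.74, -2.33, -2.95 and -4.35 in HF-low-suf. The tissues did not overlap, and the difference was 2.31 ± 0.21, or 4.95-fold, in 12 of 12 mice (adjusted P = 3.82e-10).

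Plk1 and Aurka, kinases that build the spindle, differed by 1.42 ± 0.19 and 1.04 ± 0.15, and were well above background on 7 and 12 of 12 liver arrays. Aurkb, the kinase of the passenger complex, and Nek2, a centrosome kinase, were not above background on any liver array and were at least 1.46-fold and at least 1.68-fold higher in the colon. The bound for Aurkb lies under the 1.5-fold of the test, which its measured difference of 1.10 ± 0.25 passed. Its probe was well above background on 9 of 12 colon arrays. Ttk, a kinase of the spindle checkpoint, was above background on 1 array in all, and its difference was 0.08 ± 0.16 (adjusted P = 0.741).

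Of the checkpoint, exit and kinetochore genes, Cenpe, a kinetochore motor, lay between -1.12 and 0.02 in the colon and between -3.71 and -1.35 in the liver. Cdc20, which activates the anaphase-promoting complex, lay between -1.36 and -0.16 in the colon and between -3.64 and -1.77 in the liver. Neither overlapped between the tissues, and the differences were 2.18 ± 0.24 and 1.94 ± 0.20. The Cenpe probe was above background on 3 of 12 liver arrays, and 2 further, dimmer probes of Cenpe gave 0.19 and -0.20, short of the threshold. Bub1b, a checkpoint protein, was at least 1.51-fold higher in the colon. Its relative Bub1 (0.41 ± 0.23, adjusted P = 0.190) and Cenpa, the histone of the centromere (0.42 ± 0.18, adjusted P = 0.0626), did not pass. Bub1 was above background on 7 colon arrays and 0 liver arrays, and Cenpa on 12 and 6. Of the mitotic motors, Kif20a was higher in the colon by 1.38 ± 0.21 in 11 of 12 mice, and Kif11 gave 0.20 ± 0.15 (adjusted P = 0.352), above background on 4 colon arrays and on no liver array.

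The choice of probe mattered for several genes. Dimmer probes gave smaller differences for Mcm3 (0.64), Kif20a (1.08) and Mki67 (above), which passed, while the dimmer probes of Mcm4 (-0.20), Rrm1 (0.03), Cdc2a (0.14) and Top2a (0.02 and -0.11) did not, and each of these was well above background on at most 2 arrays. For Cdc6 the dimmer probe passed (0.64, adjusted P = 0.00355) where the brighter one did not. With the mean over all probes of a gene, 21 of the 37 genes were higher in the colon, and the share over all genes is not given for this setting.

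Other genes of the same processes were counted from 3 further lists. Of 45 other DNA replication genes, 21 were higher in the colon and 2 in the liver, with a median difference of 0.53. Those with the largest measured differences were Uhrf1, which brings DNA methylation to new DNA (5.81-fold), Chaf1b, a histone chaperone (2.90-fold), and Lig1, the ligase of the lagging strand (2.40-fold). In the liver these were well above background on 1, 6 and 12 of 12 arrays, so that the first fold rests on dim liver spots. Mcm10, which helps to start the replication fork, was 1.88-fold higher in the liver. Of 43 other regulators, 16 were higher in the colon and 3 in the liver, and of 46 other mitosis genes 21 and 1, with medians of 0.43 and 0.49. The mitosis gene higher in the liver was Cdca2, 7.03-fold and well above background on all arrays of both tissues. Cdkn2b, an inhibitor of the G1 kinases, had the largest measured difference of the regulators (14.1-fold, against a probe well above background on 2 of 12 liver arrays), followed by Ccnd2, a D-type cyclin (3.96-fold, on all 12), while Ccnd1, another D-type cyclin, was 2.11-fold higher in the liver. The median over all probes was -0.02, as above.

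Both tissues lay below the reference for 30 of the 37 genes (81.1%), against 33.4% of all probes, although the labels describe the reference as an equimolar pool of RNA from these same mice. For Rrm2 the mean ratio over the tissues, on the linear scale, was 0.0634, for Rrm1 0.282 and for Birc5 0.288, and these 3 genes had a mean log2 ratio below -1 in both tissues, as had 2.51% of all probes. The median of this mean ratio was 0.546 over the 37 genes and 1.02 over all probes. Among genes well above background on all 24 arrays, 6 of 9 lay below 0 in both tissues, against 28.2% of such probes. Because every sample carried Cy3, a dye effect and the make-up of the pool, which is given as colon in one place and intestine in another, cannot be told apart. The differences between tissues compare samples of the same dye.

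The second comparison asked whether sufficient selenium and folate after weaning altered these genes. Differences are HF-low-suf minus HF-low-low by the labelled dyes, and for Top2a the direction they give is the opposite of the one the study lists. At the threshold of the study (limma, more than 1.5-fold at an unadjusted P below 0.01) 0 of the 37 genes passed in the colon, where 0.168% of all probes did, and 0 passed in the liver, where 0.117% did. None of the 37 genes had an unadjusted P below 0.05 in either tissue. Over the array 1228 probes did in the colon and 877 in the liver, and 0 passed Benjamini-Hochberg adjustment. In the colon the differences ran from -0.24 to 0.28 with a median of -0.02, and 17 of 37 were positive. In the liver they ran from -0.31 to 0.35 with a median of 0.04, and 25 were positive. The corresponding medians over all probes were -0.01 and 0.01. Standard errors were 0.14 to 0.26 in the colon and 0.13 to 0.44 in the liver, with 6 mice per diet. Differences of the size of these errors were not detectable, and clearly larger ones could be missed. For genes with the larger errors this includes differences above 1.5-fold. A dimmer probe of Top2a, described below, differed by 0.99 ± 0.36 in the colon and did not pass the threshold of the study.

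**Figure D2:**
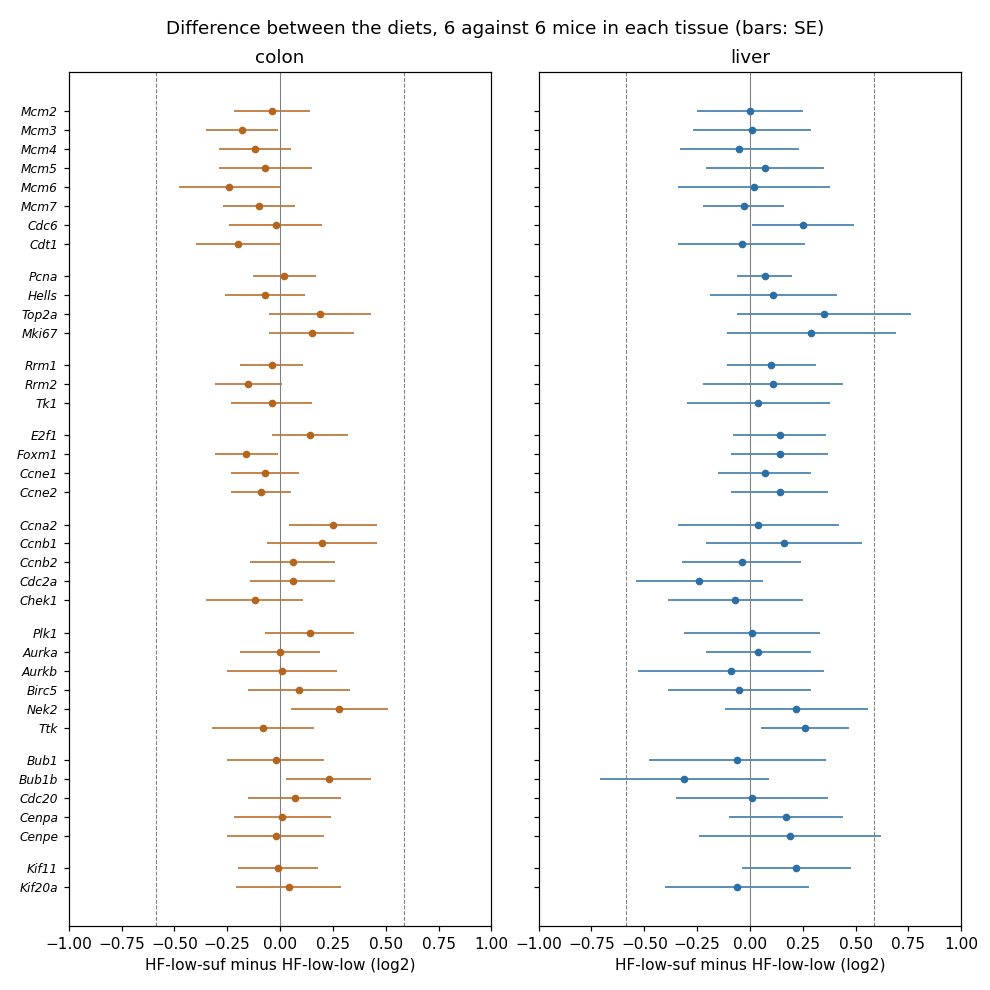
Difference between the diets (HF-low-suf minus HF-low-low, log2) for each of the 37 genes in the colon (left) and liver (right), as points with the standard error of the fit and dashed lines at 1.5-fold. The points lie between -0.24 and 0.28 in the colon and between -0.31 and 0.35 in the liver, all inside the dashed lines.

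The genes with the smallest P in the colon were Ccna2, Nek2 and Bub1b, all with higher means in HF-low-suf. The log2 ratio of Ccna2 was between -1.05 and -0.03 in HF-low-low, with a median of -0.78, and between -0.90 and 0.25 in HF-low-suf, with a median of -0.50. The groups overlapped over most of their range, and the difference was 0.25 ± 0.21 (P = 0.236, exact permutation P = 0.288). The sign of the Ccna2 difference was not the same on both scan days, with 0.61 over the 3 slides of the first and -0.10 over the 3 slides of the second. Nek2 differed by 0.28 ± 0.23 (exact permutation P = 0.294) and Bub1b by 0.23 ± 0.20 (exact permutation P = 0.325). Ccna2, Nek2 and Bub1b were each higher in HF-low-suf on 5 of 6 slides. Leaving out 1 array at a time gave 0.11 to 0.39 for Ccna2, 0.15 to 0.41 for Nek2 and 0.08 to 0.33 for Bub1b.

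In the liver the smallest P values belonged to Ttk (0.26 ± 0.21, exact permutation P = 0.258), Cdc6 (0.25 ± 0.24, P = 0.357 by the same test) and Kif11 (0.22 ± 0.26, P = 0.450). All 3 were dim on every liver array, and these values come from spots not well above background. They moved with the background correction: without any, Ttk was 0.05, Cdc6 0.33 and Kif11 0.02, and with plain subtraction they were 0.04, 0.47 and -0.02.

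Top2a is the member that the study names for the colon, and its probes did not give 1 answer. On its brightest probe (chr11:99104969-99105783, mm7, minus strand, a span of 815 bases), detected on 5 HF-low-low arrays and on all 6 of HF-low-suf, the log2 ratio was 0.20, -0.41, -1.21, -0.81, -0.64 and -0.85 in HF-low-low replicates 1 to 6 and 0.28, -0.80, -0.79, -0.24, -0.15 and -0.86 in HF-low-suf. The groups overlapped, and the difference was 0.19 ± 0.24 (P = 0.432, exact permutation P = 0.459), or 0.05 to 0.36 leaving out 1 array at a time. The second probe is the one the study lists. It gave 0.99 ± 0.36 (P = 0.0141, exact permutation P = 0.0281) and was detected on 0 HF-low-low arrays and on 2 of HF-low-suf, with HF-low-low values from -2.67 to 0.19 and HF-low-suf values from -0.35 to 0.58. The last probe gave 0.40 ± 0.15 (P = 0.0189, exact permutation P = 0.0173) and was above background on no colon array. None of the 3 passed the study's threshold here, and the adjusted P of each was 0.9999.

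For none of the 37 genes was the diet difference found to differ between the tissues (limma interaction, 0 below an adjusted P of 0.05, as for all probes). Standard errors of the interaction were 0.17 to 0.51, so that sizeable differences could be missed. The smallest unadjusted P of the interaction was 0.206, for Bub1b, with 0.54 ± 0.42 (colon minus liver), and 2646 of the 41174 probes had an unadjusted P below 0.05. None of the 45, 43 and 46 genes of the further lists passed the study's threshold in the colon or in the liver.

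The third comparison was between arrays of the same tissue. Over the 12 colon arrays, the 25 genes that were well above background on all of them formed 300 pairs with a median Pearson's r of 0.57, and 61.0% of the pairs had an r above 0.5. The median over all pairs of the 13795 probes detected in the same way was 0.00, and 13.2% of those pairs had an r above 0.5. All arrays share the same reference and the same normalization, and these correlations are given as a description.

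**Figure D3:**
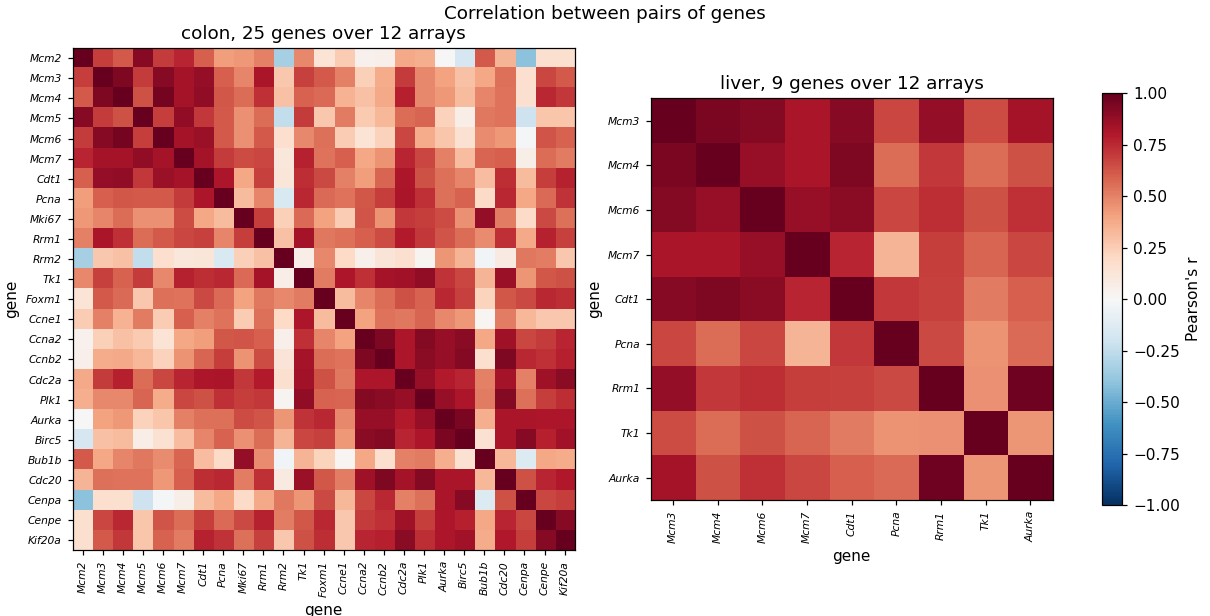
Pearson's r between each pair of genes well above background on all 12 arrays of the tissue, 25 genes in the colon (left) and 9 in the liver (right), from -1 (blue) to 1 (red). In the colon the helicase genes at the upper left and the cyclin and mitosis genes at the lower right have medians of 0.83 and 0.80 within their sets and 0.42 between them, and in the liver all pairs are positive.

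In the colon 18 of the 25 genes belong to 2 sets that were defined by role and not by clustering. The 7 helicase and loading genes (Mcm2 to Mcm7 and Cdt1) correlated with one another with a median r of 0.83 (0.60 to 0.96), and the 11 genes of the S to M cyclins and mitosis with a median of 0.80 (-0.14 to 0.94), while between the sets the median was 0.42 (-0.41 to 0.81), with 37.7% of pairs above 0.5. The means of the sets had an r of 0.51 over the colon arrays. Over the liver arrays it was 0.78, where of the mitotic genes only Aurka was detected on every array. In the colon the mean of the other DNA replication genes correlated with both sets (r = 0.85 with helicase and loading, 0.79 with cyclins and mitosis). For the other mitosis genes these were 0.48 and 0.95. The most closely correlated pair was Mcm4 and Mcm6, and in the mitotic set Aurka and Birc5 (r = 0.94), Ccnb2 and Cdc20, and Ccna2 and Ccnb2 (r = 0.93 for each).

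Cdc2a correlated with both sets, with a median r of 0.70 with the helicase genes and 0.81 with the other mitotic genes. Tk1 did so too (0.68 and 0.72), as did Rrm1 (0.67 and 0.65). Rrm2 correlated with neither (0.12 and 0.16). Bub1b was the exception in the mitotic set, with a median of 0.36 with its own set and 0.49 with the helicase genes. Cenpa, in contrast, had a median of 0.67 with the mitotic genes and 0.06 with the helicase genes, and its r with Mcm2 of -0.41 was the lowest of the 300.

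The arrays with the highest means were not the same for both sets. The mean log2 ratio of the 7 helicase and loading genes was highest in HF-low-low replicate 1 (0.52) and lowest in HF-low-suf replicate 6 (-0.51) and HF-low-low replicate 3 (-0.47). The mean of the 11 cyclin and mitosis genes was highest in HF-low-suf replicate 1 (-0.08) and HF-low-low replicate 4 (-0.11), and the next array, HF-low-suf replicate 2, was at -0.44. HF-low-low replicate 1, the highest for the helicase genes, was at -0.64 for the mitotic genes, below 4 other arrays. High and low arrays were found in both diets and on both scan days.

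**Figure D4:**
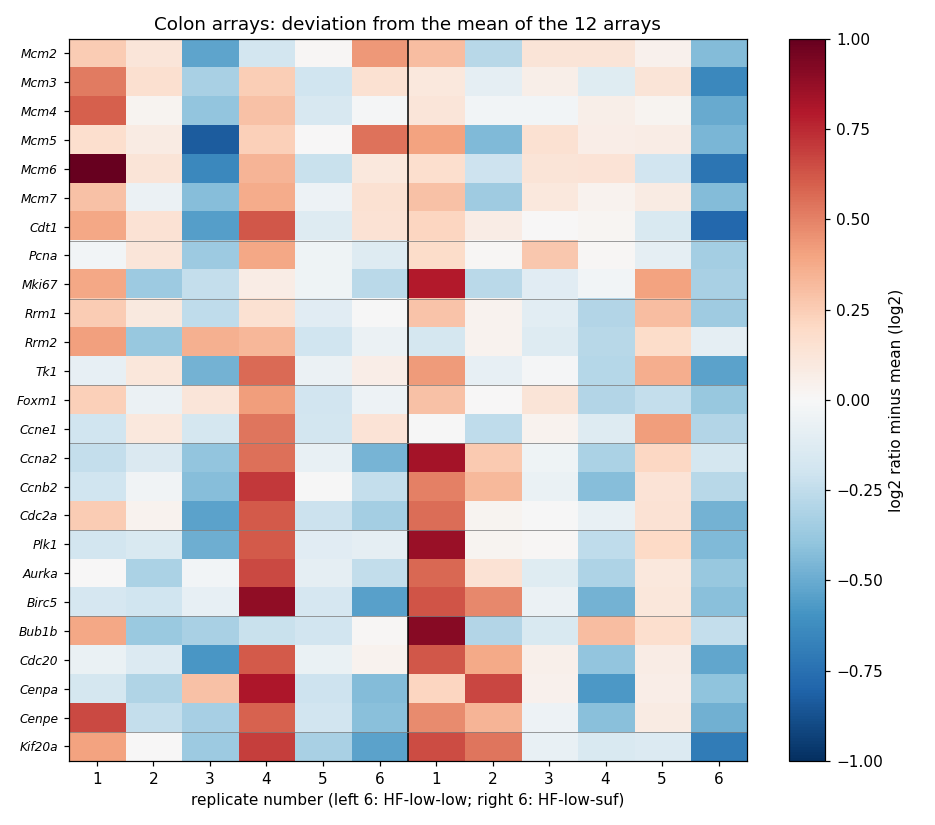
Deviation of each of 25 genes on each of the 12 colon arrays from the gene's mean over these arrays (log2, red above and blue below), with HF-low-low to the left of the black line and HF-low-suf to the right. Mcm3, Mcm4 and Mcm6 at the top are reddest in HF-low-low replicate 1, most mitosis genes at the bottom in HF-low-low replicate 4 and HF-low-suf replicate 1, and all 25 genes lie below their mean in HF-low-suf replicate 6.

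A family of 12 pairs was tested in each tissue where both genes were well above background on all 12 arrays, which left 9 tests. In the colon r was 0.96 for Mcm4 and Mcm6 (rho = 0.97, permutation P = 1.00e-05, the smallest that the resamples allow, adjusted P = 9.00e-05), 0.93 for Ccnb2 and Cdc20 (rho = 0.88, permutation P = 2.00e-05, adjusted P = 9.00e-05), 0.91 for Mcm2 and Mcm5 (rho = 0.81, permutation P = 5.00e-05, adjusted P = 0.000150) and 0.83 for Mcm3 and Mcm7 (rho = 0.78, permutation P = 0.000500, adjusted P = 0.000900). Without the 2 arrays farthest from the median of the first gene these were 0.90, 0.86, 0.80 and 0.78. Within the scan days they were at least 0.83.

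The clamp and the salvage enzyme, Pcna and Tk1, had an r of 0.75 (rho = 0.59, permutation P = 0.00522, adjusted P = 0.00671), and 0.52 without the 2 farthest arrays, and the adjusted P of rho was 0.0589. The subunits of ribonucleotide reductase, Rrm1 and Rrm2, had an r of 0.29 in the colon (rho = 0.29, permutation P = 0.358, adjusted P = 0.358), with -0.18 on one scan day and 0.80 on the other.

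In the liver 9 genes were well above background on every array, and their 36 pairs had a median r of 0.68 (0.34 to 0.97), against 0.01 over all pairs of 9665 probes. The 5 helicase and loading genes among them had a median of 0.89. The highest r, 0.97, was between Rrm1 and Aurka. In the tested family r was 0.87 for Mcm4 and Mcm6 (rho = 0.89, permutation P = 0.000170, adjusted P = 0.000382) and 0.82 for Mcm3 and Mcm7 (rho = 0.83, permutation P = 0.00116, adjusted P = 0.00174), or 0.75 and 0.67 without the 2 farthest arrays, and 0.59 and 0.68 on the first scan day. Pcna and Tk1 gave 0.45 (rho = 0.49, permutation P = 0.145, adjusted P = 0.163), and 0.05 without the 2 farthest arrays, with -0.53 on the first scan day and 0.95 on the second.

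**Figure D5:**
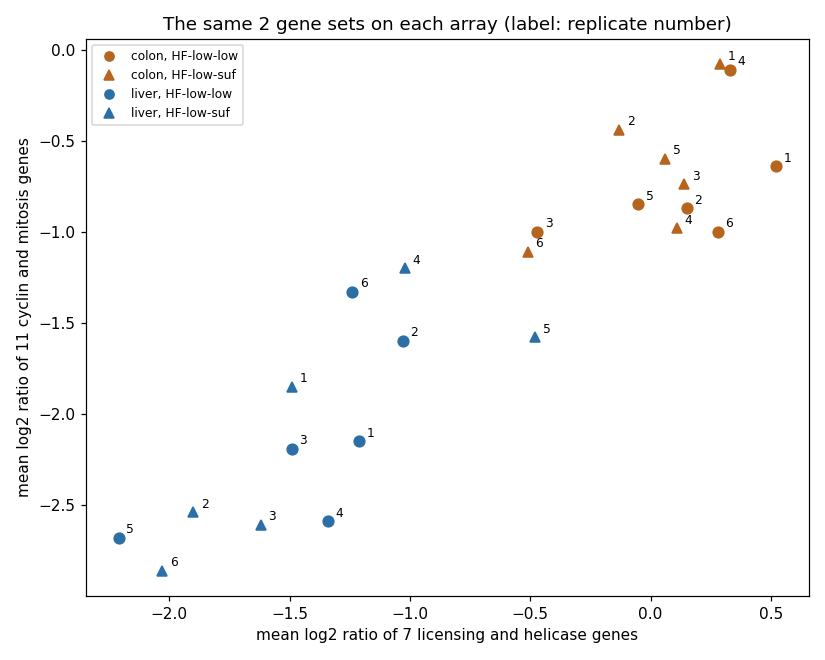
Mean log2 ratio of the 7 helicase and loading genes (horizontal axis) against that of the 11 cyclin and mitosis genes (vertical axis) on each of the 24 arrays, with colon in brown, liver in blue, circles for HF-low-low and triangles for HF-low-suf, labelled by replicate number. The colon arrays lie at the upper right, the liver arrays run from -2.21 to -0.48 on the horizontal axis, and the diets are mixed within each tissue.

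The levels also varied more between livers than between colons. For the 9 genes detected on all 24 arrays, the median SD within a diet group was 0.53 in the liver and 0.30 in the colon, and 8 of the 9 genes had the larger SD in the liver. Over all 9113 probes detected on all arrays it was 0.25 in both tissues, with the larger SD in the liver for 51.2%. Pcna was the exception among the 9. The mean of the helicase and loading genes ran from -2.21 (HF-low-low replicate 5) to -0.48 (HF-low-suf replicate 5) in the liver. A mouse with a high value in the liver did not need to have one in the colon: over the 12 mice the r between the tissues was 0.45 for the helicase and loading mean and -0.15 for the cyclin and mitosis mean. Of its 11 genes, the number of liver arrays well above background was 12 for Aurka, 0 for Bub1b and 2 to 11 for the others.

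Other measures moved with these sets between arrays, and their part in the co-variation was not tested. In the colon the helicase and loading mean correlated with the mean of the endothelium and stroma markers (r = 0.80) and of the macrophage markers (r = 0.77) over 12 arrays each, and the cyclin and mitosis mean had an r of 0.18 and 0.25 with these. The B cell and germinal centre markers correlated with both sets, with an r of 0.70 for helicase and loading and 0.75 for cyclins and mitosis, and the T cell markers had an r of 0.27 and 0.56. Of the stroma, macrophage and B cell lists 8 of 9, 3 of 8 and 3 of 12 genes were well above background on all colon arrays, and Timd4 was above background on none. Their summed Cy3 level on the log2 scale was 15.20 to 17.20, 11.67 to 13.02 and 13.03 to 14.78 in HF-low-low and 15.58 to 17.16, 11.77 to 12.70 and 13.33 to 14.97 in HF-low-suf. With the differentiated epithelium markers r was 0.16 for helicase and loading and 0.17 for cyclins and mitosis, and with the crypt base markers -0.41 and -0.29.

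In the liver the cyclin and mitosis mean correlated with the mean of the markers of differentiated colon epithelium (r = 0.87) and of the crypt base (r = 0.86). For the helicase and loading mean these were 0.59 and 0.66. The B cell, smooth muscle and T cell lists had an r of 0.75, 0.69 and 0.53 with the cyclin and mitosis mean and of 0.53, 0.46 and 0.61 with the helicase and loading mean. The macrophage and Kupffer cell list had -0.26 and -0.13, and the hepatocyte list 0.30 and 0.35. Of the epithelium and crypt base lists 7 of 10 and 1 of 14 genes were well above background on all liver arrays, and their summed Cy3 level was 15.50 to 16.18 and 13.54 to 13.88 in HF-low-low and 15.57 to 16.10 and 13.33 to 13.87 in HF-low-suf. In the liver the cyclin and mitosis mean had an r of 0.48 with the brightness of the reference channel and of 0.37 with that of Cy3. These were 0.06 and -0.01 without liver HF-low-suf replicate 4. For the helicase and loading mean in the liver they were 0.26 and 0.03, and 0.03 and -0.27 without this array. In the colon the cyclin and mitosis mean had an r of 0.19 with the brightness of the reference channel and of 0.53 with that of Cy3, which were 0.66 and 0.72 without HF-low-suf replicate 5. For the helicase and loading mean in the colon they were -0.01 and 0.23, and -0.05 and 0.36 without this array. The part of array brightness in the co-variation was not tested. Without the 2 arrays whose reference was bright, 24 genes were called higher in the colon and the r of Mcm4 and Mcm6 was 0.98 in the colon and 0.87 in the liver.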

How the data were processed

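Gene expression was measured on 24 two-colour arrays of 44k format, 12 of colon and 12 of liver, with 6 per tissue and diet. The intensity values that the authors deposited are the mean Cy3 and Cy5 signal and the median local background of each spot, quantified by Feature Extraction 9.5.3.1 and not normalized. The processed signals in the same files were used as an alternative, and the log ratios were not used.

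Background was corrected by normexp with an offset of 50, followed by loess on each array. Of 45018 spots, 1639 controls and outlier spots were left out, and spots of a probe were averaged, which gave 41174 probes. Models were fitted to all probes with limma 3.58.1 (R 4.3.3), which was tested on simulated data. Diets were compared within a tissue, and tissues over 24 arrays, where the mouse was a random block (correlation 0.158). The 37 genes and the other lists were chosen with earlier results of these data known. All 37 are named. The 30 taken up for description gene by gene were well above background on all colon arrays, had the 3 largest or smallest tissue differences among genes detected on 6 or more arrays of either tissue, had the 3 smallest P between diets, or are Top2a. Of other lists at most 3 genes per direction are named, and 1 gene of the DNA replication list is not reported here. The number of arrays limits the precision.

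Arrays of one replicate number shared a slide, and slides 1 to 3 and 4 to 6 were scanned on separate days, per the file headers. Deviations of same-numbered arrays correlated between -0.09 and 0.24 in the colon and between -0.50 and 0.53 in the liver, so the number was not used as a pairing. Alternatives were other background corrections, processed signals, median centring, Cy3 alone, outliers kept, a filter on dim probes, other probes and thresholds, all arrays in one fit, blocks, scan days, and leaving out each replicate or the bright-reference arrays. Probe positions are in mm7 and promoters are RefSeq's in GRCm38.p6.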

Additional observations from a re-analysis of the deposited data

Results flagged for a closer look

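Over 30 of the 37 genes, each in the 4 groups of arrays, the highest or lowest array stood apart from the others by Dixon's test in 10 of 120 cases, where chance gives about 6.00. Many of these genes correlate over the same arrays, so the cases are not separate trials and the 2 numbers cannot be weighed against each other. Colon HF-low-suf replicate 6 was lowest for Mcm3 (-1.09, next -0.57), Mcm4 (-0.80, next -0.33) and Cdt1 (-0.39, next 0.24). Colon HF-low-low replicate 4 was highest for Ccnb2 (0.12, next -0.59), Plk1 (-0.15, next -0.85), Aurka (-0.08, next -0.74) and Birc5 (-0.17, next -1.14). In the liver, HF-low-low replicate 5 was lowest for Mcm3 (-2.68, next -1.82) and Mcm4 (-2.62, next -1.72), and HF-low-suf replicate 6 for Foxm1 (-0.91, next -0.33). These are log2 ratios to the reference.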

How the results depend on the processing

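The number of the 37 genes higher in the colon was 24, and between 19 (fold change above 2) and 32 (processed signals) under the alternatives. Over all 41174 probes, 5021 were higher in the colon in the main setting and 8023 with the processed signals. The count over all probes is not given for the fold change above 2. With the processed signals the median difference between tissues was 1.65, where the median over all probes was 0.19 and not -0.02, the median r in the liver was 0.54 and the Rrm2 difference was 0.15. With median centring the median r in the colon was 0.80, the Tk1 and Rrm2 differences were 0.26 and 0.04, and Ccne1 passed at 0.61. The Ccna2 diet difference in the colon was -0.10 on the second scan day. The cause was not tested.

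No gene of the 37 was called between diets under any alternative run, and none was called higher in the liver. With the replicate block 0 of the 37 genes were called in either tissue, while over all probes the calls between diets went from 69 to 92 in the colon and from 48 to 131 in the liver. Leaving out each mouse gave 24 to 25 genes higher in the colon and a median difference of 0.94 to 1.14. Leaving out each array gave a median r of 0.49 to 0.62 in the colon and 0.62 to 0.75 in the liver. Genes dim in the liver have only a lower bound there.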
